A study of Arabidopsis thaliana with 8 samples.

Results

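The brassinosteroid (BR) inactivation genes were examined by RNA-Seq in dark-grown (etiolated) seedlings of *Arabidopsis thaliana*. They are 5 loci chosen by name from the 33518 loci of the count table: *BAS1* (AT2G26710), *CYP72C1*, also called *SOB7* (AT1G17060), *BEN1* (AT2G45400), *UGT73C5* (AT2G36800) and *UGT73C6* (AT2G36790). The choice was by name and used no measured level, but earlier results of these data were known when it was made. Wild type (Col-0) seedlings were compared with *iaa3/shy2-2* (*iaa3*) seedlings, in which a gain-of-function mutation stabilizes the auxin signaling repressor IAA3. All 4 groups, the mock-treated ones included, were grown in the dark for 5 days with 2 µM propiconazole (PPZ), which blocks BR synthesis, and so shared a lowered supply of their own BR. They then received a mock treatment or brassinolide (BL), the most active BR, at 100 nM and were harvested 4 hr later, with 2 libraries per group. The mutant is a single allele, and RNA came from whole seedlings.

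BR levels are set by synthesis and by inactivation, and both are under feedback control: active BR lowers the mRNA of biosynthetic enzymes and is known to raise that of *BAS1*. *BAS1* encodes a cytochrome P450 that inactivates BL and its precursor castasterone by hydroxylation, and *CYP72C1* encodes a related P450 that acts on BRs. *UGT73C5* and *UGT73C6* encode glucosyltransferases that attach glucose to BRs, and *BEN1* encodes a protein related to dihydroflavonol reductase that lowers the content of several BRs when it is overproduced.

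The libraries held 18107519 to 23183988 counted reads, at which 3 counts, the upper limit for a gene counted 0 times, equalled 0.120 to 0.172 CPM, that is counts scaled to equal library size. Such limits cover counting error only. Libraries of a group differed by more than sampling noise, as a chi-square of their counts divided by its degrees of freedom came to 3.93 to 12.1, so none was a copy of another. Without BL, *IAA3* mRNA was counted 997 and 1128 times in wild type and 306 and 244 times in *iaa3*. The mutation acts on the IAA3 protein, so this difference does not by itself check the genotype. *PORA*, which marks dark-grown tissue, was present at 426 to 1170 CPM. The 3 light-harvesting and Rubisco genes listed as markers of light-grown leaf were not absent, at a summed 3022 to 4579 CPM. A list of 10 hypoxia genes and a list of 8 heat shock genes moved with the groups. The hypoxia genes summed to 1243 and 309 CPM (mock) and 295 and 349 CPM (BL) in wild type, and 2455 and 1451 CPM (mock) and 5449 and 5858 CPM (BL) in *iaa3*. The heat shock genes summed to 28.6 to 56.5 CPM in every library except those of *iaa3* BL, which had 523 and 580.04 CPM. All 10 hypoxia genes and all 8 heat shock genes were called higher in *iaa3* than in wild type with BL, where 11.2% of tested genes were called higher. The part of these 2 lists in the results that follow was not tested.

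The genes lie apart, except the *UGT* pair. In the TAIR10.1 assembly *BAS1* is on chromosome 2 from 11380463 to 11383821, on the plus strand, with 4 exon blocks. *CYP72C1* is on chromosome 1 from 5832094 to 5835488, on the minus strand, with 5 exon blocks. *BEN1* is on chromosome 2 from 18703772 to 18706401, on the minus strand, with 3 exon blocks. *UGT73C5* and *UGT73C6*, each with 1 exon, lie on the minus strand of chromosome 2 from 15423172 to 15425129 and from 15420173 to 15421866, at the end of a tandem array with *UGT73C1*, *UGT73C2*, *UGT73C4* and *UGT73C3*. The 250 bases before the annotated start are shown for the 4 genes with countable expression, because 3 of them rose together with BL in wild type and the last did not. They are read on the gene's strand from RefSeq's TAIR10.1 sequence, at chr2:11380213-11380462 for *BAS1*, chr1:5835489-5835738 for *CYP72C1*, chr2:18706402-18706651 for *BEN1* and chr2:15425130-15425379 for *UGT73C5*.
BAS1: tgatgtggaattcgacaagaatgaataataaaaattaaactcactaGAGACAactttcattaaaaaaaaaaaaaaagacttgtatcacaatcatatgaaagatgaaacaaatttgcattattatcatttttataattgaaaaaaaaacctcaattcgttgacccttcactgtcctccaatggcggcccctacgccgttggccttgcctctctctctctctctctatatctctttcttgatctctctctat
CYP72C1: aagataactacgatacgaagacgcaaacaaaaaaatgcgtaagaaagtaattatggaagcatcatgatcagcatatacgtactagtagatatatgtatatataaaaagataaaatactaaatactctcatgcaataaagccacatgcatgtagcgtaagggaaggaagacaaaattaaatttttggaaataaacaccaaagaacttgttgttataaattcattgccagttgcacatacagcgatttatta
BEN1: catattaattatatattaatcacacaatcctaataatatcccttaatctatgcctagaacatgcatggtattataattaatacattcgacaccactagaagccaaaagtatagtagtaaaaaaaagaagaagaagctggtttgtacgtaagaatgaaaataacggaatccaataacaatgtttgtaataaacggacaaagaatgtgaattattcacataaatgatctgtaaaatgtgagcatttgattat
UGT73C5: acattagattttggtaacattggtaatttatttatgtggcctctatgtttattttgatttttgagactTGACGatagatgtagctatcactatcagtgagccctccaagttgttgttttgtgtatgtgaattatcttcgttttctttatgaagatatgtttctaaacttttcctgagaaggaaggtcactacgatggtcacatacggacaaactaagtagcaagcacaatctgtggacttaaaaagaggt
Capitals mark matches, on either strand, to the letters of the BR response element (CGTGTG or CGTGCG), the G-box (CACGTG, a palindrome), the auxin response element (TGTCTC or TGTCGG), the evening element (AAAATATCT), the CCA1 binding site (AAAAATCT) and the TGA factor core (TGACG). No matches overlapped.

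These windows held few matches. *BAS1* had TGTCTC on the opposite strand, printed as GAGACA, with its first base 204 bases upstream of the start, and 10.9% of 26645 protein-coding promoters of this length had TGTCTC. *UGT73C5* had TGACG 182 bases upstream, a match found in 18.6% of promoters. *CYP72C1* and *BEN1* had none of the 8 motifs. The letters CACATG, which the authors name with the G-box as a known site of BR signaling factors, were not searched. They occur, unmarked, in the printed *CYP72C1* window. Over 1000 bases, *UGT73C5* had CGTGTG at 445 and, on the opposite strand, at 405 bases upstream (17.3% of promoters had CGTGTG). It also had a second TGACG 664 bases upstream, and *CYP72C1* had TGACG on the opposite strand at 957 and 320 bases upstream (54.0% of promoters). *BEN1* had TGTCTC on the opposite strand at 343 bases upstream (39.5% of promoters). *BAS1* had 1 evening element 480 bases upstream, a match found in 7.31% of promoters of this length, and AAAAATCT 784 bases upstream (21.3% of promoters). The evening element is shown in capitals with 20 bases on each side, at chr2:11379963-11380011 on the plus strand, because the clock factor CCA1 and the NAC factor ATAF2, whose levels are given with those of *BAS1*, are known to bind the *BAS1* promoter.
BAS1 evening element: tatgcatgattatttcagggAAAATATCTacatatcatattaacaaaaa
A match to these letters is a description and does not show that a factor binds there.

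BL raised 3 of the 4 testable inactivation genes in wild type, *BAS1*, *BEN1* and *CYP72C1*, and left *UGT73C5* without a called change. The counts were tested with the quasi-likelihood method of edgeR, and a standard error (SE) for each log2 fold change was derived from its F statistic. The p-values were adjusted after Benjamini and Hochberg over all 20415 genes that passed the filter on low counts. The call required 1.5-fold or more together with p below 0.01 before adjustment, and 8.45% of tested genes were called higher and 5.87% lower with BL in wild type. *UGT73C6* did not pass this filter and is described with its neighbors. Over the 4 genes that passed the filter the median log2 fold change was 0.90, and over all tested genes it was −0.01. In whole seedlings, fewer cells that express a gene and less RNA of it per cell cannot be told apart.

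*BAS1*, which encodes the BL-inactivating P450, was the most strongly raised. Its normalized counts were 14.3 and 13.4 CPM in wild type mock and 55.0 and 50.7 CPM in wild type BL. The groups did not overlap and the lowest BL library was far above the highest mock library. The log2 fold change was 1.93 (SE 0.09, a 3.82-fold difference, edgeR adjusted p = 1e-07). In *iaa3* the levels were 9.17 and 10.8 CPM in mock and 14.0 and 15.6 CPM in BL. The *iaa3* BL libraries thus came close to the wild type mock libraries and stayed well below the wild type BL libraries. The log2 fold change with BL in *iaa3* was 0.57 (SE 0.11, a 1.49-fold difference, edgeR adjusted p = 0.0042), just short of the 1.5-fold difference, so the gene was not called. It was called without *iaa3* BL replicate 1 (0.65) and without *iaa3* mock replicate 2 (0.69).

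The *BAS1* response to BL differed between the genotypes, and the gene was low in *iaa3* with BL. The interaction of genotype and BL, called at an adjusted p-value under 0.05, was −1.36 on the log2 scale (SE 0.14, edgeR adjusted p = 0.00011). All 4 tested inactivation genes were called for the interaction, 3 with a lower value in *iaa3*, where 9.95% of tested genes were called lower, and 1, *UGT73C5*, with a higher one, where 7.63% were called higher. With BL, *BAS1* was lower in *iaa3*, and the log2 difference from wild type was −1.83 (SE 0.09, edgeR adjusted p = 1.1e-07). In mock the log2 fold change was −0.48 (SE 0.11, edgeR adjusted p = 0.0051), which is a difference of under 1.5-fold and was not called, although the *iaa3* libraries lay below both wild type libraries. That difference was called without *iaa3* mock replicate 2 (−0.59) and with library size alone as the scale (−0.60).

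*BEN1*, the reductase-like gene, followed a similar course over a smaller range. Its levels were 24.9 and 25.5 CPM (mock) and 52.6 and 48.0 CPM (BL) in wild type, and 24.1 and 24.7 CPM (mock) and 32.0 and 35.0 CPM (BL) in *iaa3*. The mock libraries of both genotypes lay within a narrow band, those of *iaa3* just below those of wild type, the *iaa3* BL libraries were above it, and the wild type BL libraries were above those. BL raised *BEN1* in wild type, where the log2 fold change was 0.996 (SE 0.08, edgeR adjusted p = 2.8e-06). In *iaa3* the log2 fold change was 0.46 (SE 0.08, edgeR adjusted p = 0.0025), under 1.5-fold and not called. The interaction was −0.54 (SE 0.11, edgeR adjusted p = 0.0069), so the smaller BL response in *iaa3* was called. With BL the gene was lower in *iaa3*, with a log2 fold change of −0.59 (SE 0.08, edgeR adjusted p = 9e-05), and was only just past the 1.5-fold difference. This call was lost with DESeq2, without a filter, with the RLE size factors in place of TMM and without *iaa3* BL replicate 1, *iaa3* mock replicate 1, *iaa3* mock replicate 2 or wild type BL replicate 1. In mock the log2 fold change was −0.05 (SE 0.08, edgeR adjusted p = 0.67).

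*CYP72C1*, the second P450 gene, had the smallest of the 3 rises. Its levels were 44.8 and 42.3 CPM (mock) and 79.2 and 73.1 CPM (BL) in wild type, and 45.6 and 43.7 CPM (mock) and 59.0 and 59.0 CPM (BL) in *iaa3*. The mock libraries of the genotypes overlapped, and the BL libraries of *iaa3* lay between the mock libraries and the wild type BL libraries. BL raised it in wild type, where the log2 fold change was 0.81 (SE 0.07, edgeR adjusted p = 6.7e-06). In *iaa3* the log2 fold change was 0.40 (SE 0.07, edgeR adjusted p = 0.0027), and with BL the difference of *iaa3* from wild type was −0.37 (SE 0.07, edgeR adjusted p = 0.0011). Both were under 1.5-fold and were not called. The interaction was −0.40 (SE 0.10, edgeR adjusted p = 0.017), and its call was lost without *iaa3* mock replicate 1 (adjusted p = 0.071) and without wild type BL replicate 1 (adjusted p = 0.067), with a range of 0.013 to 0.071 over all alternatives. In mock the log2 fold change was 0.04 (SE 0.07, edgeR adjusted p = 0.72), and −0.085 with library size alone.

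**Figure D1:**
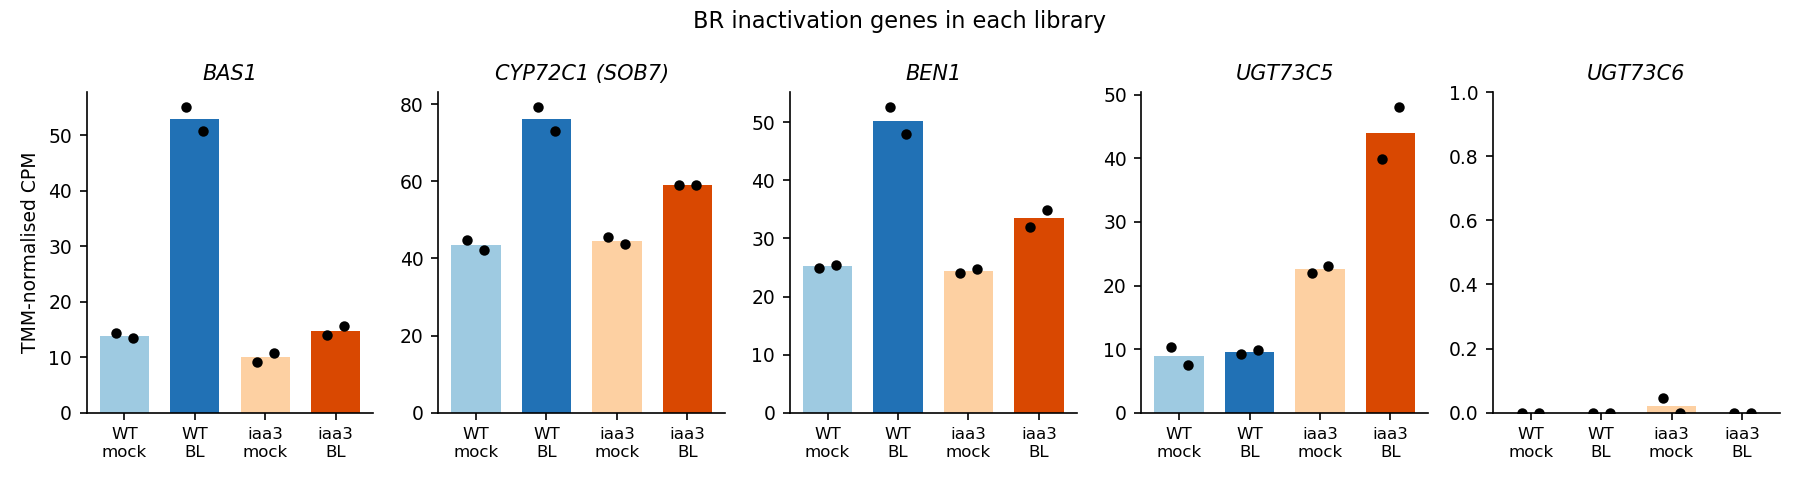
TMM-normalised CPM (y axis, from 0 in each panel, on a different scale per gene) of the 5 BR inactivation genes in the 4 groups. Bars are the mean of 2 libraries and points are the single libraries. *BAS1* reached 50.7 to 55.0 CPM in wild type BL and 14.0 to 15.6 CPM in *iaa3* BL, whereas *UGT73C5* was highest in *iaa3* BL at 39.8 and 48.0 CPM, and *UGT73C6* had 1 count in 1 library.

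*UGT73C5*, which encodes a BR glucosyltransferase, showed another pattern, in which the genotype made the larger difference. Its levels were 10.3 and 7.58 CPM (mock) and 9.27 and 9.87 CPM (BL) in wild type, and 22.0 and 23.1 CPM (mock) and 39.8 and 48.0 CPM (BL) in *iaa3*. Every *iaa3* library was above every wild type library, and the wild type groups overlapped. In mock *UGT73C5* was the only member called between the genotypes, with a log2 difference of 1.34 (SE 0.14, edgeR adjusted p = 3.4e-05), where 17.9% of tested genes were called, 8.47% higher and 9.48% lower in *iaa3*. With BL the difference was 2.20 (SE 0.13, edgeR adjusted p = 3.4e-07). With BL, 1 member was called higher and 2, *BAS1* and *BEN1*, were called lower in *iaa3*, where 25.0% of tested genes were called, 11.2% higher and 13.8% lower.

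BL raised *UGT73C5* in *iaa3* but was not shown to do so in wild type. The log2 fold change in *iaa3* was 0.96 (SE 0.12, edgeR adjusted p = 0.00039), and *UGT73C5* was the only one of the 4 tested members called with BL there, where 4.69% of tested genes were called higher and 3.46% lower. In wild type the log2 fold change was 0.11 (SE 0.15, edgeR adjusted p = 0.63), and it was −0.10 without wild type mock replicate 2. The interaction was 0.85 (SE 0.19, edgeR adjusted p = 0.012), and its call was lost without wild type BL replicate 1 (adjusted p = 0.060), with a range of 0.0017 to 0.060 over all alternatives. Of the 10 hypoxia genes, 2 were called higher in *iaa3* mock than in wild type mock, 4 were called higher with BL in *iaa3* and 3 were called lower with BL in wild type. The shares of all tested genes called in these directions were 8.47%, 4.69% and 5.87%. The summed level of the hypoxia genes was also highest in *iaa3* BL. In wild type mock, wild type BL and *iaa3* BL the library with the higher hypoxia sum had the higher *UGT73C5* level. In *iaa3* mock it had the lower level. With 2 libraries per group, this order does not tell how the levels are related. The part of the hypoxia genes in the *UGT73C5* levels was not tested. The 4 comparisons share groups, since each group of libraries enters a treatment comparison and a genotype comparison.

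**Figure D2:**
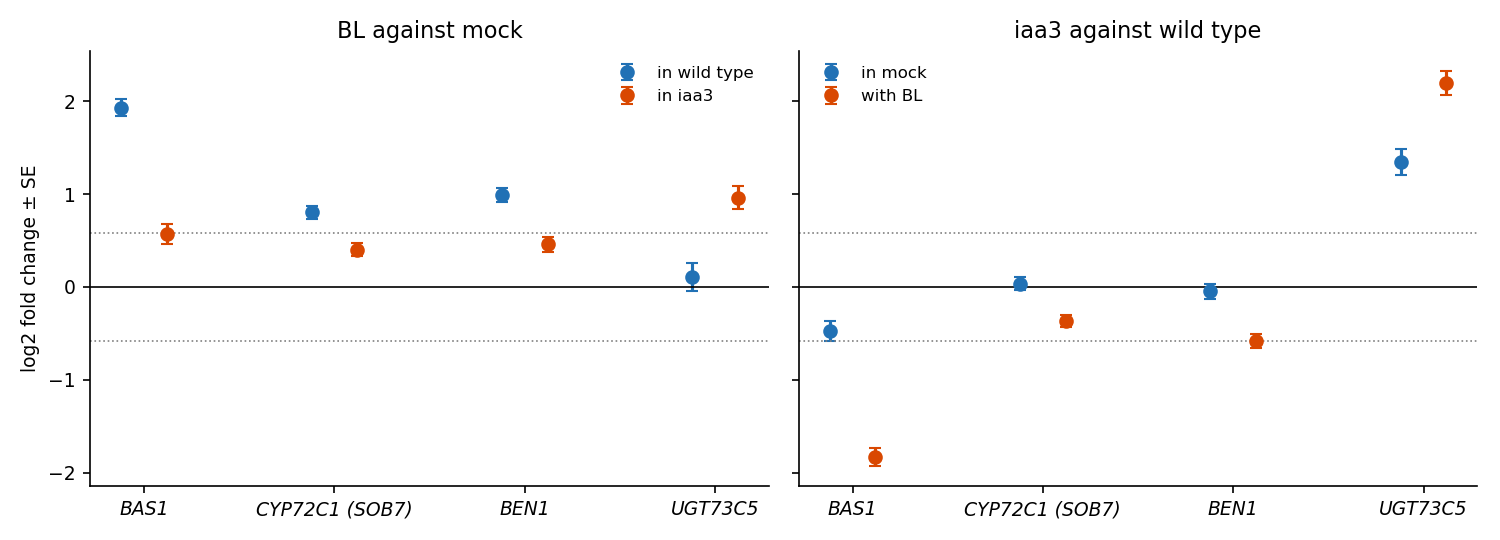
Log2 fold change (y axis) of the 4 tested BR inactivation genes with BL against mock in each genotype (left) and in *iaa3* against wild type in each treatment (right). Points are estimates from edgeR, bars are standard errors, and dotted lines mark a 1.5-fold difference. *BAS1* stood at 1.93 in wild type and 0.57 in *iaa3* on the left, and *UGT73C5* was the gene above the dotted line on the right in both treatments, at 1.34 and 2.20.

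Per kilobase of exon, the order of the genes changed between the groups. In wild type mock *CYP72C1* had the highest level, 22.6 and 21.4 CPM per kb, followed by *BEN1* at 14.2 and 14.5 CPM per kb, *BAS1* at 6.47 and 6.09 CPM per kb and *UGT73C5* at 5.26 and 3.87 CPM per kb. With BL in wild type the order was the same, but *BAS1* had come near *BEN1*, with levels of 24.9 and 22.96 CPM per kb against 30.0 and 27.4 CPM per kb. In *iaa3* mock *BAS1* was last at 4.15 and 4.87 CPM per kb, below *UGT73C5* at 11.3 and 11.8 CPM per kb. In *iaa3* BL *UGT73C5* was second, at 20.3 and 24.5 CPM per kb, above *BEN1* at 18.3 and 19.95 CPM per kb, and *BAS1* was last at 6.34 and 7.06 CPM per kb. Neighbors in each order did not overlap between libraries, but with 2 libraries per group the differences between genes were not tested, and the lengths are those of TAIR10.1 exons. The lengths enter every library alike and have no part in the comparisons between groups.

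*UGT73C6*, the closest relative of *UGT73C5*, was all but uncounted. It had 1 count in *iaa3* mock replicate 1 and 0 in the other 7 libraries, so that each group lay at or under the limit of 3 counts per library and no fold was computed. Its whole exon, 1677 bases, is covered on the opposite strand by an annotated long noncoding RNA gene, AT2G36792 (chromosome 2, 15420065 to 15422088, plus strand). Without stated use of strand, reads from the gene and from this antisense gene cannot be told apart, and how reads that fall on both were counted was not stated. Among protein-coding loci with at least 95% of their exons under 1 such opposite-strand locus, 84 of 242 (34.7%) had at most 3 counts in every library, against 4860 of 21000 (23.1%) with no such overlap. The count of *UGT73C6* therefore does not show whether its mRNA was present.

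Reads of the 2 *UGT* genes could also be shared. Their coding sequences, 1488 bases each, were 91.0% identical, and 128 of the 1909 windows of 50 bases in the *UGT73C5* transcript (6.71%) occurred unchanged in that of *UGT73C6*. The longest such run, 110 bases, spans coding bases 985 to 1094 of both genes, at chr2:15423887-15423996 and chr2:15420733-15420842 on the minus strand. It is shown because a read from it could not be assigned to either gene by its sequence.
UGT73C5 and UGT73C6: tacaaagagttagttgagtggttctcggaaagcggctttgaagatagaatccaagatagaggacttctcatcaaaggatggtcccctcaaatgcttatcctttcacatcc
A small part of the *UGT73C5* counts is thus uncertain, since it was not given how reads with more than 1 matching locus were handled. The other family members shared at most 1 window of 50 bases with *UGT73C5*, and their coding sequences were 66.7% (*UGT73C7*) to 83.7% (*UGT73C3*) identical to it.

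In the rest of the *UGT73C* family, *UGT73C4* and *UGT73C7* were also called higher in *iaa3* mock, where 8.47% of tested genes were called higher. Of 5 relatives, 3 passed the filter, and *UGT73C1* and *UGT73C2* had at most 1 count in a library. *UGT73C4*, the neighbor but one of *UGT73C6* in the array, was counted 7 and 10 times (mock) and 5 and 11 times (BL) in wild type, and 22 and 43 times (mock) and 30 and 39 times (BL) in *iaa3*. All *iaa3* libraries were above all wild type libraries, at low counts throughout. The log2 fold changes between the genotypes were 2.01 in mock (SE 0.45, edgeR adjusted p = 0.0050) and 2.34 with BL (SE 0.45, edgeR adjusted p = 0.0014). *UGT73C3* was also separated by genotype, at 1.43 to 2.36 CPM in wild type and 2.68 to 3.09 CPM in *iaa3*. Its log2 differences between the genotypes, 0.48 in mock (SE 0.24) and 0.76 with BL (SE 0.25), were not called. *UGT73C7*, which lies on chromosome 3, was called higher in *iaa3* mock by a log2 value of 0.63 (SE 0.17, edgeR adjusted p = 0.014) and not with BL (0.11). None of the 3 was called with BL in either genotype, where 14.3% of tested genes were called in wild type and 8.15% in *iaa3*.

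**Figure D3:**
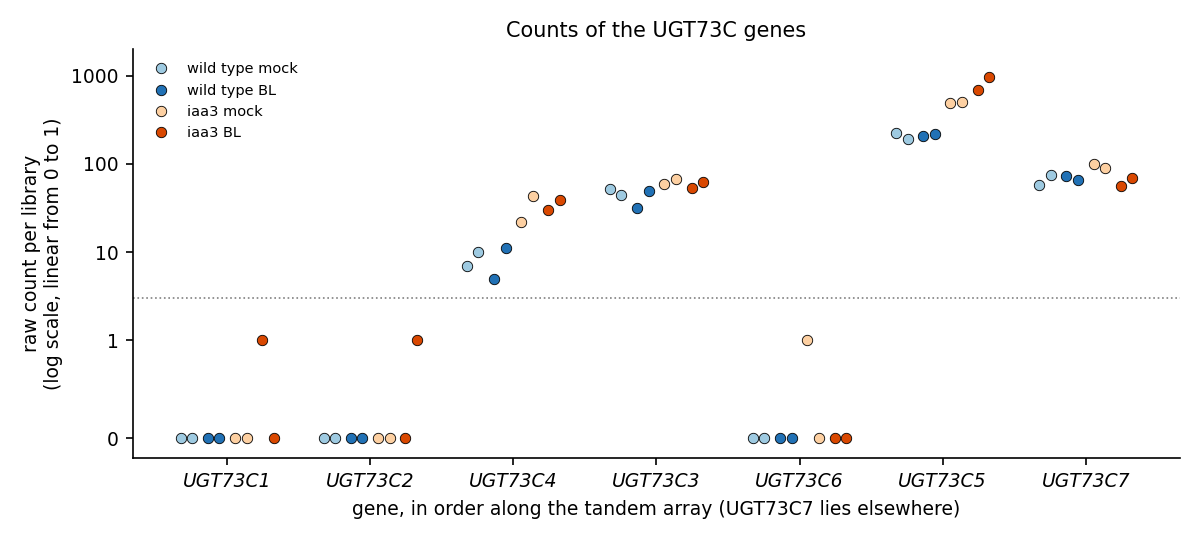
Raw counts per library (y axis, log scale above 1 and linear from 0 to 1, dotted line at 3 counts) of the 7 *UGT73C* genes, in the order of the tandem array with *UGT73C7* last. Each point is a library, colored by group. *UGT73C5* stood at 190 to 227 counts in wild type and 493 to 964 in *iaa3*, *UGT73C4* showed the same separation at 5 to 43 counts, and *UGT73C1*, *UGT73C2* and *UGT73C6* had at most 1 count.

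Of 5 other genes reported to modify BRs, 4 passed the filter, and with BL in wild type 1 of them was called lower and none higher. Of all tested genes, 5.87% were called lower and 8.45% higher there. The sulfotransferase gene *ST4A* was not tested, with 1 and 2 counts in mock and 6 and 4 counts with BL in wild type, and at most 2 in an *iaa3* library. The median log2 fold change of the 4 with BL was −0.24 in wild type and −0.26 in *iaa3*, against −0.01 and 0.01 over all tested genes. The sulfotransferase gene *ST1* had 10.2 and 10.4 CPM (mock) and 5.06 and 5.18 CPM (BL) in wild type, and 7.64 and 7.72 CPM (mock) and 12.7 and 13.9 CPM (BL) in *iaa3*. It was thus low with BL in wild type and high with BL in *iaa3*. The log2 fold changes with BL were −1.002 in wild type (SE 0.11, edgeR adjusted p = 5e-05) and 0.80 in *iaa3* (SE 0.11, edgeR adjusted p = 0.00051), both called. The interaction, 1.80 (SE 0.15, edgeR adjusted p = 2.7e-05), had the same sign as that of *UGT73C5*. *BAT1*, which encodes an acyltransferase that acts on BRs, had 8.62 and 11.3 CPM (mock) and 6.99 and 7.95 CPM (BL) in wild type, and 6.48 and 7.63 CPM (mock) and 4.19 and 3.09 CPM (BL) in *iaa3*. It fell with BL in *iaa3*, where the log2 fold change was −0.96 (SE 0.20, edgeR adjusted p = 0.0070), and its log2 fold change in wild type, −0.42, was not called. The interaction of *BAT1* was not called (−0.54, edgeR adjusted p = 0.19). The acyltransferase genes *BIA1* and *DRL1* were not called in any comparison.

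With BL in wild type, 1 of the 15 tested P450 relatives, *CYP709B2*, was called higher and 3 were called lower. Of all tested genes, 8.45% were called higher and 5.87% lower there. The list held 17 genes of the same P450 clan as *BAS1* and *CYP72C1*, and the 15 that passed the filter had a median log2 fold change of 0.04. *CYP709B2* had 6.85 and 7.74 CPM (mock) and 15.7 and 13.8 CPM (BL) in wild type, and 3.76 and 4.90 CPM (mock) and 3.67 and 3.39 CPM (BL) in *iaa3*. It was high in wild type BL alone, where the log2 fold change was 1.02 (SE 0.14, edgeR adjusted p = 0.0002) and the interaction was −1.31 (SE 0.22, edgeR adjusted p = 0.0026). The genes called lower were *CYP735A2*, which encodes a cytokinin hydroxylase (−1.71), *CYP715A1* (−1.07) and *CYP72A8* (−0.79). In *iaa3* 1 gene, *CYP715A1*, was called lower with BL (−0.68) and none was called higher, beside 3.46% of tested genes called lower and 4.69% higher. Between the genotypes 3 clan genes were called higher and 1 lower in *iaa3* mock, and 4 higher and 1 lower with BL. Of all tested genes, 8.47% were called higher and 9.48% lower in mock, and 11.2% higher and 13.8% lower with BL. *CYP72A7* was higher in *iaa3* in both treatments, with log2 differences of 0.86 in mock and 0.99 with BL, with 78.95 and 88.3 CPM in wild type mock and 149.7 and 154.4 CPM in *iaa3* mock. The relatives of *BEN1*, the flavonoid genes *DFR* and *BAN*, had at most 2 counts in a library and were not tested.

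On the synthesis side of the feedback, 6 of 7 BR biosynthesis genes were called lower with BL in each genotype. Of all tested genes, 5.87% were called lower with BL in wild type and 3.46% in *iaa3*. The median log2 fold changes of the 7 genes were −4.06 in wild type and −2.80 in *iaa3*. The remaining gene, *DET2*, was also lower with BL, by −0.24 in wild type and −0.41 in *iaa3*, both under 1.5-fold. *DWF4*, which encodes a hydroxylase that limits the pathway's flux, had 151.4 and 143.1 CPM (mock) and 4.38 and 4.97 CPM (BL) in wild type, and 160.5 and 197.6 CPM (mock) and 4.94 and 4.93 CPM (BL) in *iaa3*. Its BL libraries were low in both genotypes. The interaction of *DWF4* was −0.20 (SE 0.19, edgeR adjusted p = 0.50), against −1.36 for *BAS1*. Of the 7 genes only *CYP90D1*, which encodes a BR hydroxylase, was called for the interaction (1.57, SE 0.26, edgeR adjusted p = 0.0020). Its log2 fold changes with BL were −4.67 in wild type and −3.10 in *iaa3*. *BR6OX1*, which encodes a BR oxidase and whose BL responses are the list medians, had an interaction of 1.26 (SE 0.48, edgeR adjusted p = 0.13) that was not called, at 5 to 15 counts per BL library. It was called lower in *iaa3* mock, with a log2 difference of −2.37 (SE 0.17, edgeR adjusted p = 3.3e-06). An interaction of genotype and BL was called for 4 of 4 tested inactivation genes and 1 of 7 biosynthesis genes, beside 7.63% of tested genes called higher and 9.95% lower. These counts depend on the threshold. The interaction of *CPD*, another biosynthesis gene, was 0.36 (SE 0.12, edgeR adjusted p = 0.057) and not called, while that of *CYP72C1*, −0.40, was called. Over the 7 biosynthesis genes the interaction had a median of 0.36 and ranged from −0.20 to 1.57. The inactivation count was 2 without wild type BL replicate 1 and 2 when 1.5-fold and p under 0.01 were required, and the lists were not tested against each other. Per kilobase, *CPD*, which encodes a P450 of BR synthesis, had 288 to 327 CPM per kb in the mock libraries and 62.9 to 90.4 CPM per kb with BL, above the level of every inactivation gene in every library. *DWF4* had 50.3 to 69.5 CPM per kb in mock and 1.54 to 1.75 CPM per kb with BL, the latter below *BAS1*, *CYP72C1*, *BEN1* and *UGT73C5* in every BL library.

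**Figure D4:**
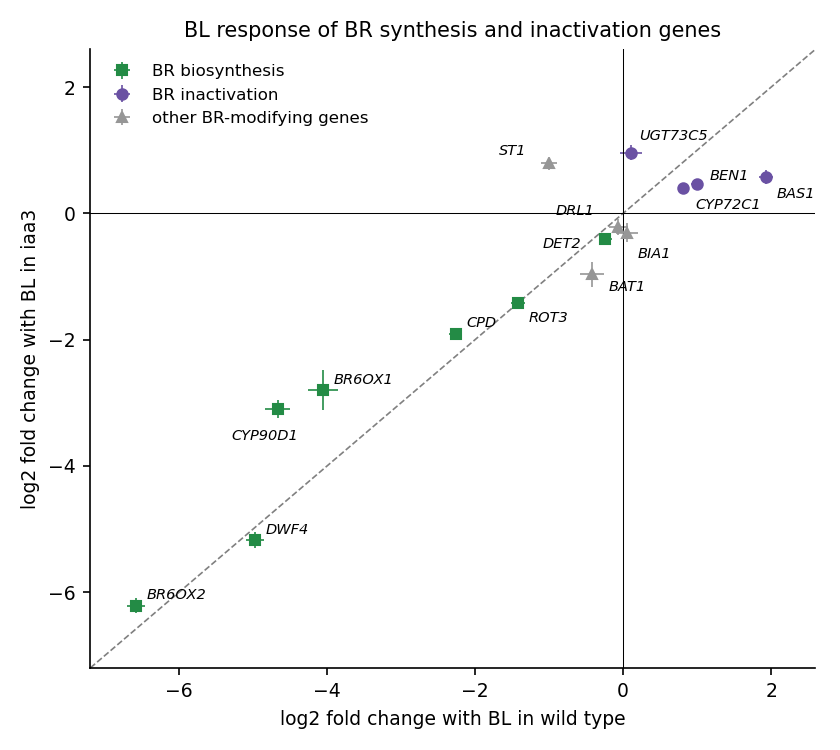
Log2 fold change with BL in wild type (x axis) against that in *iaa3* (y axis) for BR biosynthesis genes (squares), BR inactivation genes (circles) and other BR-modifying genes (triangles). Bars are standard errors derived from edgeR's F statistic. On the dashed line both genotypes respond alike. *DWF4* lies near the line at −4.98 and −5.18, *BAS1*, *BEN1* and *CYP72C1* lie below it with positive values on both axes, and *ST1* has opposite signs, −1.002 and 0.80. Each axis compares the 4 libraries of its own genotype, but the standard errors on both axes come from 1 fit to all 8 libraries.

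Of 9 factors reported to act on *BAS1* or *CYP72C1*, 3 were called lower and none higher with BL in wild type. These were *ATAF2* (−1.04), which encodes a NAC factor known to repress *BAS1* and *CYP72C1*, and the auxin response factor genes *ARF6* (−0.97) and *ARF8* (−1.07). Of all tested genes, 5.87% were called lower and 8.45% higher with BL in wild type. With BL in *iaa3* 1, *CCA1*, was called higher and 2, *ARF6* and *ATAF2*, lower, and between the genotypes 2 were called lower in *iaa3* mock, and 3 higher and 1 lower with BL. The shares of all tested genes were 4.69% higher and 3.46% lower with BL in *iaa3*. Between the genotypes they were 8.47% higher and 9.48% lower in mock, and 11.2% higher and 13.8% lower with BL. *ATAF2* had 81.2 and 84.4 CPM (mock) and 38.5 and 41.9 CPM (BL) in wild type, and 111.3 and 124.6 CPM (mock) and 66.2 and 87.3 CPM (BL) in *iaa3*. It was lowest where *BAS1* was highest, and the log2 difference between *iaa3* and wild type with BL was 0.94 (SE 0.12, edgeR adjusted p = 7.4e-05). Its fall with BL in *iaa3* was 0.62 on the log2 scale, called, and the interaction was not called (0.42, edgeR adjusted p = 0.097). *CCA1*, which encodes a clock factor known to repress *BAS1*, had 33.2 and 26.7 CPM (mock) and 24.9 and 24.0 CPM (BL) in wild type, and 12.3 and 11.9 CPM (mock) and 26.2 and 21.3 CPM (BL) in *iaa3*. It was low in *iaa3* mock alone, where *BAS1* was also lowest. The log2 fold change between the genotypes in mock was −1.30 (SE 0.12, edgeR adjusted p = 2.1e-05), BL raised *CCA1* in *iaa3* by 0.97, and the interaction was 1.26 (SE 0.17, edgeR adjusted p = 0.00071). The related clock gene *LHY* was also lower in *iaa3* mock (−1.28) and with BL (−0.65). *ARF7*, a factor gene known to act on *BAS1*, was not called in any comparison, with log2 fold changes of −0.19 to 0.10 and 62.6 to 80.0 CPM. *LOB*, a known activator of *BAS1*, had 3 to 24 counts in a library and was not called. For the interaction 3 of the 9 were called, *CCA1* and *ARF8* (0.55, SE 0.14, edgeR adjusted p = 0.020) higher and *BZR1* lower, beside 7.63% of tested genes called higher and 9.95% lower. *BZR1*, which encodes a transcription factor of BR signaling, had an interaction of −0.46 (SE 0.11, edgeR adjusted p = 0.017), with log2 fold changes with BL of 0.43 in wild type and −0.03 in *iaa3*, neither called. *BES1*, its close relative, was not called in any comparison. Whether any of these levels bears on *BAS1* was not tested.

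A list of 7 detoxification genes was set beside *UGT73C5*, because the enzyme is also known to glucosylate the fungal toxin deoxynivalenol and glucosyltransferases often respond to chemicals. None was called higher and 1 was called lower in *iaa3* mock, and with BL 1 was called higher in *iaa3*, *CYP81D8* (1.18). Of all tested genes, 8.47% were called higher and 9.48% lower in *iaa3* mock, and 11.2% higher and 13.8% lower with BL. With BL in wild type 4 were called lower, among them the glucosyltransferase genes *UGT73B4* (−2.51) and *UGT73B5* (−0.87), and in *iaa3* 3 were called lower and none higher. The shares of all tested genes called lower with BL were 5.87% in wild type and 3.46% in *iaa3*, and 4.69% were called higher in *iaa3*. No gene of the list was called higher in *iaa3* in both treatments, as *UGT73C5* was. For the interaction 3 were called higher, as *UGT73C5* was, namely *GSTU25* (1.79), *CYP81D8* (1.47) and *UGT73B4* (0.81), and *UGT75B1* was called lower (−0.63), with a list median of 0.81. Of all tested genes, 7.63% were called higher and 9.95% lower for the interaction.

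Over the 8 libraries, the genes with the pattern most like each member were found by Pearson's correlation of log2 CPM, over 13025 genes whose mean log2 CPM was 3 or more. For *BAS1* they were AT5G41060 (r = 0.996), AT3G07540 and AT1G30690 (both r = 0.995). For *BEN1* they were AT5G06700 (r = 0.996), AT1G11960 (r = 0.995) and *MYB6* (r = 0.993), for *CYP72C1* *NET4A* (r = 0.993), AT4G29310 (r = 0.9925) and *RD28* (r = 0.992), and for *UGT73C5* AT1G17830 (r = 0.998), *TTG1* (r = 0.997) and AT1G10140 (r = 0.9965). These are descriptions, since the libraries share 4 groups and many genes differ between them. The size of a change is not part of this measure, and the group means of *TTG1* lay between 5.18 and 5.50 on the log2 CPM scale. Among the members, *CYP72C1* and *BEN1* were most alike (r = 0.982), *BAS1* correlated with *BEN1* at 0.947 and with *CYP72C1* at 0.890, and *UGT73C5* correlated with the other 3 at −0.467, −0.176 and −0.04.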

How the data were processed

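RNA-Seq was done on total RNA of whole etiolated seedlings, with 2 libraries in each of 4 groups. The authors deposited raw read counts per locus, 1 column per library, without normalization, and the submitters' processing notes name CASAVA 1, TopHat, HTSeq and TAIR9. The use of strand and the handling of reads that match several or overlapping genes are not given in the sources used here. All 33518 rows of the table named a gene, and all columns matched a library. Groups came from the sample labels. Nothing there says that libraries came from separate cultures, so p-values measure only the spread between these libraries, which may be technical.

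Counts were analyzed in R 4.3.3 with edgeR 4.0.16 (filterByExpr by group, TMM factors, quasi-likelihood fit with 1 coefficient per group over all 8 libraries). The interaction was the BL response in *iaa3* minus that in wild type. SEs were derived from the F statistic, and log2 CPM used a prior count of 2. DESeq2 1.42.0, other scalings, filters, sample sets and call rules, a replicate block and each library left out were the alternatives. The edgeR fit was tested on simulated counts with changes planted in wild type BL alone, for BL against mock in wild type and for the interaction. The other comparisons and steps were not tested on simulated data.

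The named genes were the 5 members, lists of other BR-modifying genes, *UGT73C*, P450 clan and *BEN1* relatives, BR biosynthesis genes, factors reported to act on *BAS1* or *CYP72C1* and detoxification genes, *IAA3*, marker genes, and the 3 genes most like each member. Members and lists were chosen with earlier results of these data known. Coordinates, exon lengths and sequences came from RefSeq's TAIR10.1, and no coordinate of the count table's own annotation was used. Motifs were searched in 250 and 1000 bases upstream of each annotated gene start, and coding sequences were aligned globally.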

Additional observations from a re-analysis of the deposited data

Results flagged for a closer look

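All 4 tested inactivation genes responded to BL differently in the 2 genotypes by edgeR's interaction test, at which 3589 of 20415 tested genes were called. On the log2 scale the response in *iaa3* minus that in wild type was −1.36 for *BAS1*, −0.54 for *BEN1*, −0.40 for *CYP72C1* and 0.85 for *UGT73C5*. The calls for *CYP72C1* and *UGT73C5* were lost without wild type BL replicate 1, which left 2 members called, and that for *CYP72C1* also without *iaa3* mock replicate 1.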

How the results depend on the processing

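Of 336 log2 fold changes of members under alternatives, 334 kept their sign, and 311 also stayed on the same side of the call. *CYP72C1* in *iaa3* against wild type in mock became −0.085 with library size alone, a scale that moved the median of all genes by −0.13 there and by −0.11 with BL in wild type, and took the share of called genes that were higher from 47.2% to 34.1% and from 59.0% to 45.4%. In the interaction that share went from 43.4% to 56.2%. *UGT73C5* with BL in wild type ranged from −0.10 to 0.34 with single libraries left out. The cause of these changes was not tested. At a 2-fold difference, 1 member was called with BL in wild type, 0 in *iaa3* and 1 for the interaction, and over all genes 1441 were called with BL in wild type, 775 in *iaa3*, 1906 between genotypes in mock, 2992 with BL and 1029 for the interaction. With library size alone 2 members were called in mock. Calling the interaction at 1.5-fold and p under 0.01 gave 2 members and 2296 genes. With single libraries left out, 1 to 2 members were called with BL in *iaa3*, 1 to 2 between genotypes in mock, and 2 to 4 for the interaction, for which 2028 to 4137 genes were called, against 3589. It gave 2028 without *iaa3* mock replicate 2. With 2 libraries per group, changes near 1.5-fold and genes of few counts, such as *UGT73C6*, are at the limit of this depth.

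Deviations of libraries with the same number correlated at 0.24 between wild type mock and *iaa3* mock. Over the other pairs of groups the correlations were −0.06 to 0.06. Whether libraries with the same number shared a batch is not stated in the labels and was not tested. A replicate block changed no member's call, with 3 members called with BL in wild type, 1 in *iaa3*, 1 in mock, 3 with BL between genotypes and 4 for the interaction, where 3889 genes were called.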
